A study of Mus musculus with 15 samples.

Results

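The older L1 subfamilies of the mouse were followed in 3 kinds of library from mice without TEX15. In long RNA they were the repeat consensus sequences whose names begin with L1MdF, L1MdFanc, L1MdV, L1MdN, L1MdMus or LX, 24 of 359 sequences, of which 20 had enough reads to be tested. Among piRNAs they were all TE names of the L1 family other than L1Md_T, L1Md_A and L1Md_Gf, 129 of 875 names, of which 128 had reads of 25 to 30 nt and 117 could be tested. The names were read without regard to upper or lower case, so LX in long RNA and Lx in the piRNA names are the same lineage. The L1Lx sequences, 4 in number, are spelled differently and are given beside the members, as are 14 young L1 sequences, which are those of the L1MdTf, L1MdGf and L1MdA lineages and L1_MM. The piRNA name L1_Mm is an older name by the rule used, although the consensus of that name is among the young sequences in long RNA.

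Gonocytes, the foetal male germ cells, were sorted by a Miwi2 tdTomato reporter at E16.5 from control Tex15+/-; Miwi2 tdTom/+ and from Tex15-/-; Miwi2 tdTom/+ testes, with 3 RNA-seq libraries per genotype. Small RNA came from unsorted E16.5 testes, 6 pooled per library, with 3 Tex15+/- control and 3 Tex15-/- libraries. Whole testes of Tex15-/- mice at P20 gave 3 RNA-seq libraries of 1 testis each, and control testes of that age were not analysed here. All mice had a mixed B6CBAF1/Crl; C57BL/6N background, the Tex15 null allele was made by a single guide in exon 5, and the controls also carried 1 null allele. Nothing in the sample descriptions says that the libraries of a group came from separate litters, so p-values measure the spread between these libraries.

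LINE-1 (L1) elements copy themselves through an RNA intermediate, and in the mouse new lineages have replaced one another, leaving old copies that are truncated, mutated and mostly no longer mobile. L1MdF and its ancestor L1MdFanc, L1MdN, L1MdMus, L1MdV and Lx are such superseded mouse and rodent lineages, and the L1M names belong to copies shared with other mammals. In foetal gonocytes, piRNAs cut from TE transcripts guide the PIWI proteins MILI and MIWI2, and their reads tend to have a U at the first position and, in the copies made by ping-pong amplification, an A at the tenth.

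For names with many reads in each lineage, the most abundant piRNA that carried no other TE name in any library was as follows. T stands for U, and the capitals mark the first and the tenth position.
L1Md_F2: AtgttctctAtggagtcttctgcaccta
L1Md_F3: TggtctgatAgggtgtatgggacaatatc
L1_Mus3: TctcctgcgTagactgatctcagtgatc
L1_Mus1: TaggatctgAtgaagtttttgatttcttc
L1_Mur1: TgttgatcgGcgttcttggttatgaca
Lx: TaatagctgTgcagtactctgttgtgg
L1MB8: TggaagagtGgaatcgacacagacgg
MusHAL1: TgttctcttAagatctgtttaacaaatgc

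In the GRCm38 assembly from RefSeq, all but the L1Md_F2 sequence had 1 exact copy on the assembled chromosomes. Those shown are the leading sequences with 1 or 2 exact copies, so these low numbers follow from the choice. The L1Md_F3 sequence lay at chr6:129025322-129025350 on the plus strand, the Lx sequence at chr16:91508305-91508331 on the plus strand, the L1MB8 sequence at chr5:77078043-77078068 on the plus strand and the MusHAL1 sequence at chr2:15272736-15272764 on the plus strand, all outside the genes of the GENCODE annotation. The L1_Mus3 sequence at chr7:6624706-6624733 and the L1_Mur1 sequence at chr7:6641424-6641450 lay on the minus strand, 16690 bp apart and outside any annotated gene. The L1_Mus1 sequence at chr13:65300996-65301024 was on the plus strand in an intron of Zfp369, a zinc finger gene on the same strand. The L1Md_F2 sequence had 2 exact copies, at chr7:26969160-26969187 on the minus strand outside genes and at chr15:83929366-83929393 on the plus strand, in an intron of Efcab6, which is on the opposite strand. The leading sequence of Lx2 differed by 1 base from a tRNA-Gly gene and had no exact copy as it stands, so it is not shown. Leading sequences of 3 other names, found in the same way, are not shown either, and these had 8443 exact copies for L1_Mm, 33 for L1VL2 and 0 for L1M2. Over each library, 0.102% to 0.259% of older L1 reads began with 20 nt of a tRNA.

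The 2 piRNAs near each other on chromosome 7 were the most abundant of those shown. The L1_Mus3 sequence had 253, 197 and 165 RPM of TE piRNA reads (RPM, the usual depth-scaled read count, here scaled to all TE-annotated reads of 25 to 30 nt) in control libraries 1 to 3 and 208, 331 and 187 in Tex15-/- libraries. The L1_Mur1 sequence had 242, 206 and 173 in controls against 237, 291 and 196 in Tex15-/-. The genotypes overlapped for both. The L1Md_F2 sequence had 41.3, 63.0 and 72.2 in controls against 58.2, 58.1 and 26.3, again with overlap. The L1_Mus1 sequence stood at 137, 75.5 and 56.0 in controls, all above the 45.9, 53.6 and 54.9 of Tex15-/-. The leading sequences of L1Md_F3 and L1_Mm, with at most 16.7 RPM in any library, were also lower in every Tex15-/- library. The leading sequence of L1VL2 was on the other side, at 35.9, 32.4 and 19.2 in controls, all below the 68.3, 123 and 80.1 of Tex15-/-. On this scale 73.6% of all 749 TE names tested were lower in every Tex15-/- library and 1.74% higher. No such share was computed over single sequences.

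Many of the other abundant piRNAs could not be tied to 1 lineage. Each sequence had 1 TE name within a library, but the name often differed between libraries. Of the 38850 older L1 sequences seen in all 6 libraries, 18.3% kept 1 name throughout and 51.8% were listed under a young L1 name in at least 1 library. Over all 2665975 older L1 sequences, most of them not seen in all libraries, 93.4% had 1 name and 2.97% a young name. Weighted by reads, 53.5% to 57.1% of older L1 reads per library were of a sequence with another name elsewhere, and 27.2% to 30.8% of a sequence with a young name elsewhere. The share of reads with 1 name only was 36.6% for L1Md_F names, 48.9% for L1_Mus, 53.6% for L1_Mur with L1VL (a group that here and below also holds L1_Rod), 58.4% for Lx and 94.8% for L1M. A sequence seen in 1 library cannot carry another name elsewhere, and such sequences made up 21.1%, 27.5%, 22.99%, 37.0% and 59.1% of the reads of these groups in the same order, so the shares are not comparable between lineages as they stand. The following sequences, chosen after their values were seen among the most abundant renamed sequences for their few exact copies, each carried 5 names.
L1VL4, L1VL2, L1VL1, L1_Mus3 or Lx: TgttctcttAgggtctgtatgacatcta
L1VL4, Lx, L1_Mus3, MusHAL1 or L1VL2: TgttctcttAgggtctgtatgacatctacc

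The first of these had 33 exact copies on 16 chromosomes and the second 18 copies on 11. Counted as sequences whatever their name, both were lower in RPM in every Tex15-/- library than in any control, and they share 1 start, so they are not separate cases. The first had 2388, 2347 and 1813 RPM of TE piRNA reads in controls against 838, 1234 and 1313 in Tex15-/-. The second had 1764, 1652 and 1312 in controls against 854, 854 and 1170 in Tex15-/-. Of the 6 most abundant renamed sequences 3 overlapped between genotypes, among them the most abundant, which had 2265, 2258 and 2098 in controls against 1964, 1771 and 2247 in Tex15-/-, and the other one that was lower holds most of the same stretch as the pair shown. All 25 to 30 nt reads with the same first 20 bases made 6990, 6822 and 5967 RPM in controls against 4304, 3817 and 4791 in Tex15-/-, under 17 to 30 names per library. Their choice rests on these values, so no test was made. Among all 749 TE names tested, 73.6% were also lower in every Tex15-/- library on this scale.

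In gonocyte RNA, L1MdF_I was the member that rose in Tex15-/- when the libraries were scaled with TMM. It had 26271, 25341 and 26032 TMM-scaled RPM of TE reads in controls against 34145, 46362 and 39540 in Tex15-/-, a log2 fold change of 0.63 (SE 0.13, adjusted p = 0.00114, edgeR). TMM is a scaling of the libraries that takes most TE sequences as unchanged. The control libraries lay close together, and every Tex15-/- library was above them. It was the 1 member of 20 tested that passed the adjusted p of 0.01, against 7.64% of all sequences tested (23 of 301). With DESeq2, which has its own scale factors, L1MdF_I also passed (log2 fold change 0.62, adjusted p = 0.00139). Its value depended on the scale: with total TE counts and no TMM the log2 fold change was 0.24 (adjusted p = 0.0861), and with library sizes taken from gene counts the log2 fold change was 0.26 (adjusted p = 0.857), with 5097, 5717 and 5494 in controls against 8225, 4560 and 6766 in Tex15-/-. There the groups overlapped, since Tex15-/- library 2 lay below the controls. The call was also lost when control library 2, control library 3 or Tex15-/- library 3 was left out (log2 fold changes 0.61, 0.60 and 0.62, adjusted p = 0.0756, 0.0467 and 0.0169, edgeR). Scaling to genes moved the median of all sequences tested from -0.02 to -0.30, so the TE table as a whole was lower on that scale. Long RNA was available as counts per consensus sequence, so reads that L1MdF and young L1 sequences share could not be told apart.

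**Figure D1:**
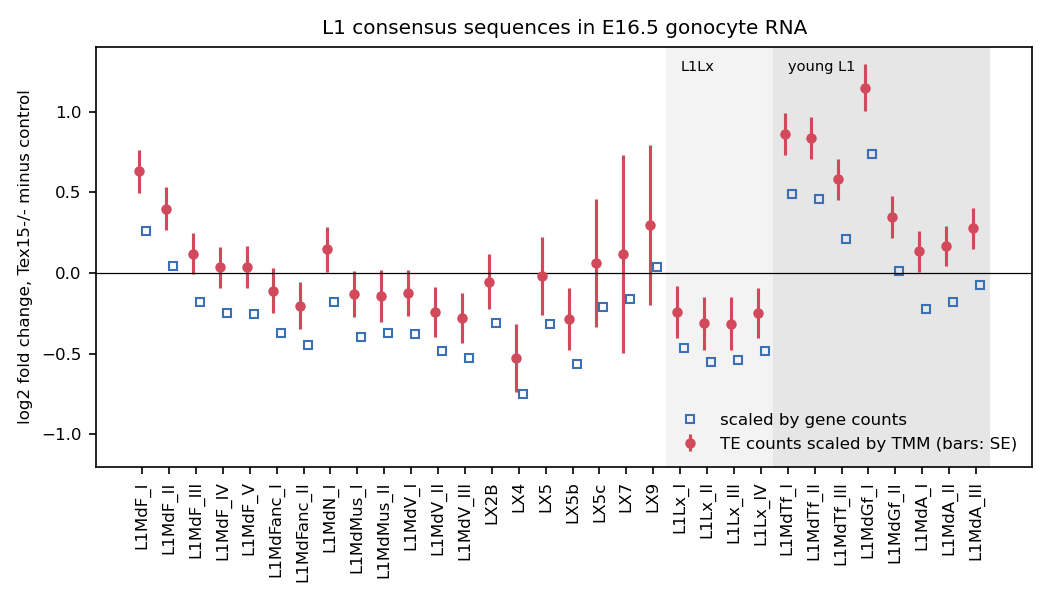
Log2 fold change (Tex15-/- minus control, 3 libraries each) of L1 consensus sequences in E16.5 gonocyte RNA. Filled red points are TMM-scaled TE counts with SE, open blue squares the same counts scaled by gene counts. Along the numbered L1MdF sequences the filled points pass from 0.63 at L1MdF_I to 0.04 at L1MdF_V, and the L1Lx sequences (pale band) lie below 0 on both scales.

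Among the numbered L1MdF sequences the fold change was highest for I and II. The separate consensus of the F 5′ end, L1Md_F_5end, which is no member by name, stood at 0.61 with TMM (adjusted p = 0.0148), at 0.22 without TMM (adjusted p = 0.295) and at 0.23 on the gene scale (adjusted p = 0.878), where the groups overlapped. DESeq2 gave L1Md_F_5end 0.61 (adjusted p = 0.00872). L1MdF_II had 17356, 16565 and 16934 in controls against 20482, 25916 and 20660 in Tex15-/-, a log2 fold change of 0.40 (SE 0.13, adjusted p = 0.058) with no overlap of the groups. DESeq2 gave L1MdF_II 0.39 (adjusted p = 0.0879). Without TMM L1MdF_II stood at 0.01 (adjusted p = 0.928) and on the gene scale at 0.05 (adjusted p = 0.967) with overlap. Without Tex15-/- library 2 its TMM value was 0.26. L1MdF_III stood at 0.12 (adjusted p = 0.637), L1MdF_IV at 0.03 and L1MdF_V at 0.04, and the ancestral L1MdFanc_I and L1MdFanc_II at -0.11 and -0.20. These last 5 did not pass the test, and L1MdF_III, L1MdF_IV and L1MdF_V turned to -0.18, -0.25 and -0.25 on the gene scale. Ratios within a library do not depend on the scale. Within a library, L1MdF_I had 165, 156 and 162 reads per 100 reads of L1MdF_V in controls against 192, 280 and 261 in Tex15-/-. Against the young L1MdTf_I it had 57.5, 58.4 and 58.7 reads per 100 in controls against 50.2, 48.5 and 50.3 in Tex15-/-, so relative to this young sequence it was lower in every Tex15-/- library. That does not extend to all young L1. With TMM, L1MdA_I, L1MdGf_II and L1_MM had log2 fold changes of 0.13, 0.34 and 0.14, below that of L1MdF_I, and L1MdGf_I had 1.15, above it.

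The L1MdV, L1MdMus, L1MdN and LX members did not pass the test in gonocytes. L1MdV_I, L1MdV_II and L1MdV_III had log2 fold changes of -0.12, -0.24 and -0.28 (smallest adjusted p = 0.307), L1MdMus_I and L1MdMus_II of -0.13 and -0.14, and L1MdN_I of 0.15 with TMM but -0.18 on the gene scale. LX4 had 218, 212 and 218 TMM-scaled RPM in controls against 184, 108 and 151 in Tex15-/-, the 1 member whose Tex15-/- libraries were all below the controls, at a log2 fold change of -0.53 (SE 0.21, adjusted p = 0.131). On the gene scale it was -0.75 (adjusted p = 0.823), with overlap. Among all sequences tested, 8.31% had every Tex15-/- library below every control. On the other side, L1MdF_I, L1MdF_II, L1MdF_III and L1MdN_I had every Tex15-/- library above every control, 4 of 20 against 15.6% of all sequences. These counts turned with the scale: without TMM 1 of 20 was above (5.32% of all sequences) and 14 below (45.2%), and on the gene scale none was above (3.99%) or below (4.65%). The least abundant tested members, LX5c, LX7 and LX9, had 7.35 to 52.6 RPM in each library and SEs of 0.40 to 0.61, so a difference of the size seen for L1MdF_I was not detectable at this depth. LX6, LX8, LX8B and LX10 had at most 16 reads in any library and were not tested.

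**Figure D2:**
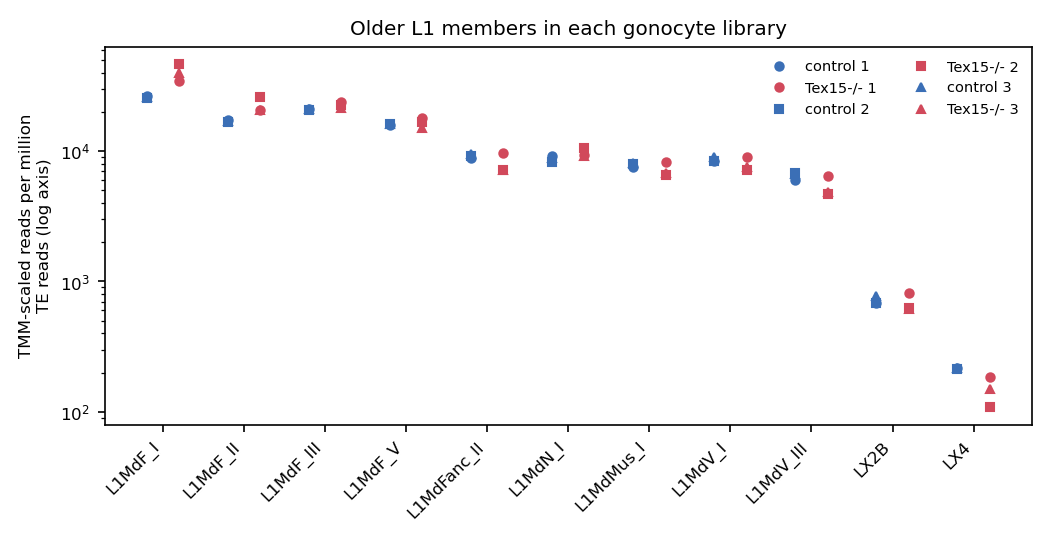
TMM-scaled RPM of TE reads (log axis) of 11 older L1 consensus sequences in each of 3 control (blue) and 3 Tex15-/- (red) gonocyte libraries. The red points of L1MdF_I, L1MdF_II, L1MdF_III and L1MdN_I stand above the blue ones, those of L1MdN_I narrowly, and those of LX4 below. The Tex15-/- library 1 (circle) is the highest Tex15-/- library for L1MdF_III, L1MdF_V, L1MdFanc_II, L1MdMus_I, L1MdV_I, L1MdV_III, LX2B and LX4.

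The median log2 fold change of the 20 tested members was -0.04, beside -0.02 for all 301 sequences, 0.26 for the 14 young L1 sequences and -0.28 for the 4 L1Lx sequences. None of the L1Lx sequences passed the test (lowest adjusted p = 0.282). Of the young sequences 5 passed, all higher, among them L1MdGf_I at 1.15, L1MdTf_I at 0.86, L1MdTf_II at 0.83 and L1MdTf_III at 0.58, beside the 7.64% of all sequences. Without TMM 3 of the 14 passed and their median was -0.13, and on the gene scale none passed and it was -0.08. On the gene scale the median of the older members was -0.31 and no member passed.

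The share of older L1 in the TE reads was lower in Tex15-/- gonocytes while the young share was higher. Young L1 held 44.6%, 43.5% and 42.2% of TE reads in controls against 45.2%, 51.9% and 45.6% in Tex15-/-, with Tex15-/- library 2 the furthest from the controls. Older members held 18.2%, 18.6% and 18.1% of TE reads in controls against 17.3%, 15.0% and 14.4% in Tex15-/-, or 18.3% ± 0.279 against 15.6% ± 1.51 (SD, n = 3). Per 100 young L1 reads there were 40.8, 42.8 and 42.8 older reads in controls against 38.3, 28.9 and 31.7 in Tex15-/-, and with the L1MdF_I to L1MdF_V sequences left out 15.7, 17.0 and 17.2 against 14.0, 8.54 and 10.3. For older L1 all Tex15-/- libraries were below the controls in each case, and Tex15-/- library 1 was nearest to them. In RPM of gene reads, the older members stood at 31054, 37053 and 34319 in controls against 44071, 17449 and 28280 in Tex15-/-, a spread between Tex15-/- libraries that exceeded the difference between genotypes. No test was planned for these shares.

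Tex15-/- libraries 2 and 3 also carried more RNA of other testis cells. Markers of Leydig cells (4 genes summed) stood at 17.8 to 61.1 CPM in controls, 34.5 in Tex15-/- library 1, 529 in library 2 and 166 in library 3, markers of interstitial cells (3 genes) at 40.8 to 47.0, 42.7, 658 and 174, and markers of Sertoli cells (4 genes) at 9.61 to 11.5, 11.8, 94.1 and 60.6. Endothelial markers (3 genes) stood at 38.5 to 43.0 in controls and 27.5, 161 and 33.3 in Tex15-/-, and blood markers (3 genes) at 5.39 to 7.56 and 5.98, 19.3 and 24.3. Of single markers, Wt1 was at 0 in control library 3 and Hbb-bs in control library 1 and Tex15-/- library 1. The sum of 7 gonocyte markers was 2606 to 2874 in all 6 libraries. Of these, Dazl had 290, 281 and 250 CPM in controls against 237, 197 and 231 in Tex15-/-, and the other markers overlapped. The part of other testis cells in the L1 values was not tested. Without libraries 2 and 3 a single Tex15-/- library remained, which is then assumed to vary as the controls do. The log2 fold change of L1MdF_I was 0.35 (adjusted p = 0.00271 on that assumption), and those of L1MdFanc_I, L1MdFanc_II, L1MdV_I and L1MdMus_I were 0.03, 0.03, 0.02 and 0.01 in place of negative values. In bulk RNA, fewer cells that express an element and less RNA per cell cannot be told apart. Tex15 itself had 8183, 8315 and 9082 reads in control gonocytes and 2338, 1267 and 1310 in Tex15-/-.

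In whole P20 Tex15-/- testis, older L1 held a smaller share of the TE reads. The 3 libraries gave 6.60%, 6.46% and 6.57%, and per 100 young L1 reads there were 13.2, 11.6 and 11.6 older reads. L1MdF with L1MdFanc held 4.52% ± 0.0844, L1MdV 1.09% ± 0.0517, L1MdMus 0.498% ± 0.0165, L1MdN 0.361% ± 0.0115 and LX 0.0822% ± 0.00249 (SD, n = 3). In E16.5 Tex15-/- gonocytes the same groups held 12.1% ± 0.907, 1.54% ± 0.363, 0.960% ± 0.225, 0.846% ± 0.0514 and 0.113% ± 0.0281. L1MdF_I had 6.36, 6.24 and 6.16 reads per 100 reads of L1MdTf_I at P20. The 2 sets of libraries differ in tissue, library kit and read length, so stage cannot be told apart from these and no test was made.

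**Figure D3:**
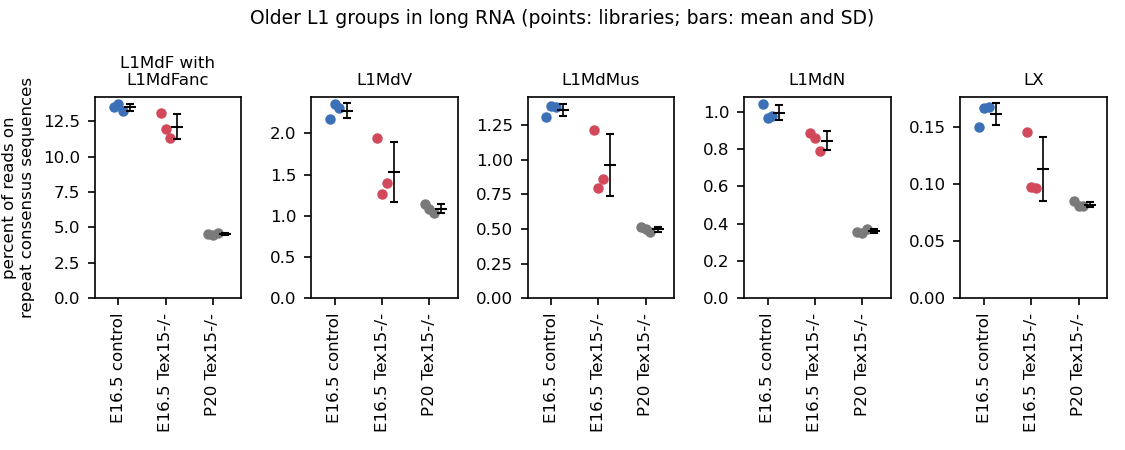
Percent of reads on repeat consensus sequences held by each older L1 group in E16.5 control (blue) and Tex15-/- (red) gonocytes and P20 Tex15-/- testis (grey). Points are the 3 libraries and bars the mean and SD, each panel has its own axis from 0, and in every group the P20 points are lowest.

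In foetal testis piRNAs, older L1 names held a lower share of the TE reads in Tex15-/- than in controls. Their share was 23.3%, 24.8% and 24.8% in controls against 21.5%, 22.2% and 22.2% in Tex15-/-, while the 3 young names held 19.8%, 21.9% and 21.4% against 21.2%, 20.6% and 22.6%. For each 100 young reads there were 118, 113 and 116 older reads in controls against 101, 108 and 98.2 in Tex15-/-. The older share was below every control in every Tex15-/- library, and the young share overlapped. Among sequences seen in all 6 libraries under 1 name, a choice made after seeing the data, the young share was 20.2%, 24.7% and 26.6% in controls against 18.01%, 14.6% and 17.6% in Tex15-/-, without overlap. The older share in this set was 6.72%, 6.85% and 7.02% in controls against 4.22%, 5.72% and 4.41% in Tex15-/-, also without overlap. The older reads per 100 young reads were then 33.3, 27.8 and 26.4 in controls against 23.4, 39.0 and 24.97 in Tex15-/-, so the lower ratio did not hold there. With each sequence given the name it carried in most libraries, the older share was 22.4% to 23.6% in controls against 20.1% to 20.98% in Tex15-/-. With sequences of a young name left out it was 18.1% to 19.2% against 15.9% to 16.7%. As a share of all 25 to 30 nt reads, older L1 did overlap, with 17.1% to 18.9% in controls and 17.2% ± 1.05 in Tex15-/- (SD, n = 3). When each distinct sequence was counted once, the older share was 26.4% ± 1.27 in controls and 27.8% ± 0.562 in Tex15-/- (SD, n = 3). The means were then in the opposite order, with overlap (25.5% to 27.9% against 27.2% to 28.3%). Between 443993 and 5775266 older L1 reads stood behind each library, with the most in control library 2, which is also the deepest at 83102785 reads of 18 to 32 nt, against 11184854 to 20873463 in the others.

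The lineages differed in this. L1Md_F names held 9.78%, 10.8% and 10.8% of TE piRNA reads in controls against 11.1%, 9.85% and 11.1% in Tex15-/-. Tex15-/- libraries 1 and 3 were above every control and library 2 was not. In Tex15-/- library 1 a single sequence held 6.01% of the L1Md_F reads, against at most 2.10% in the other libraries. With the most frequent name for each sequence, L1Md_F held 10.1%, 10.8% and 10.6% in controls against 10.6%, 9.66% and 11.1% in Tex15-/-. Tex15-/- library 3 alone was then above every control. L1_Mus names held 5.94%, 6.06% and 5.61% against 4.78%, 5.85% and 5.13%, where Tex15-/- library 2 alone overlapped the controls. L1_Mur with L1VL held 3.26%, 3.17% and 3.24% against 2.21%, 2.59% and 2.40%, Lx names 3.27%, 3.75% and 3.98% against 2.47%, 2.86% and 2.58%, and L1M names 0.483%, 0.466% and 0.519% against 0.301%, 0.323% and 0.259%. In these 3 groups no Tex15-/- library reached a control. On this scale the same held for 73.6% of all 749 TE names tested. With each sequence given the name it carried in most libraries, the genotypes did not overlap in these 3 groups either. L1_Mur with L1VL held 3.07% ± 0.0849 in controls against 2.40% ± 0.177 in Tex15-/-, 2.97% to 3.12% against 2.23% to 2.58%. Lx then held 3.13% to 3.44% against 2.21% to 2.45%, and L1M 0.448% to 0.513% against 0.257% to 0.323%. The remaining names, other L1, held 0.596%, 0.634% and 0.652% in controls against 0.646%, 0.774% and 0.669% in Tex15-/-. There Tex15-/- libraries 2 and 3 were above every control. With the most frequent name for each sequence, other L1 held 0.380% to 0.421% against 0.358% to 0.383%.

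Whether single names were higher or lower depended on the scale. With TMM factors the median log2 fold change of all 749 tested names was 0.00, and with total TE piRNA reads it was -0.88. With TMM no older L1 name passed the adjusted p of 0.01 (0 of 117, against 0.134% of all names), 3 had an adjusted p under 0.05 (3.20% of all names), 30 had an unadjusted p under 0.05 (23.8% of all names), and DESeq2 called 14 of the 117 (8.54% of all names). Without Tex15-/- library 2, TMM gave 5 calls among older names (3.29% of all names). With total reads 43 of 117 passed, all lower, against 49.9% of all names lower and 0.668% higher. Every Tex15-/- library was above every control for 32 of the 117 with TMM, against 120 of all 749 names, and below for 6, against 17.0% of all names. With total reads 1 was above (1.74% of all names) and 78 were below (73.6%).

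**Figure D4:**
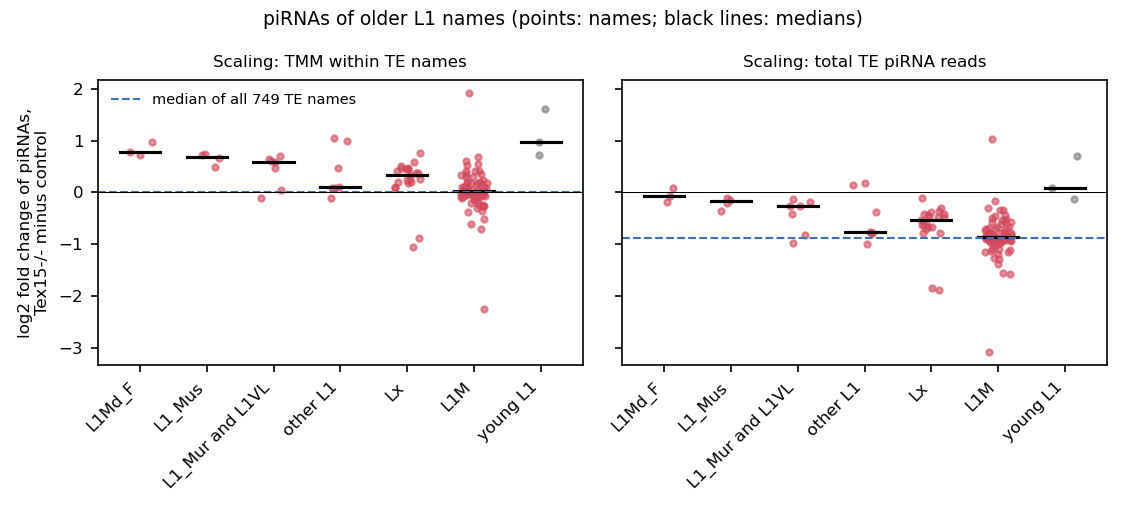
Log2 fold change (Tex15-/- minus control, 3 libraries each) of piRNAs by older L1 name, grouped by lineage, with TMM scaling (left) and total TE piRNA reads (right). Points are names, black lines medians and the dashed line the median of all 749 TE names, at 0.00 on the left and -0.88 on the right. On both sides the medians are highest for young L1, then L1Md_F, L1_Mus, L1_Mur with L1VL, Lx, other L1 and L1M, which lies near the dashed line.

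A change of scale shifts all names by a similar amount and so leaves the order of the lineages much as it is. The median log2 fold change with TMM, followed by that with total TE reads, was 0.78 and -0.08 for the 3 L1Md_F names, 0.69 and -0.17 for the 4 L1_Mus names, 0.58 and -0.27 for the 7 names of L1_Mur, L1VL and L1_Rod, 0.34 and -0.52 for the 21 Lx names, 0.11 and -0.77 for 7 other names, and 0.02 and -0.87 for the 75 tested L1M names. The young names had 0.97 and 0.09. The L1M median was close to that of all TE names on both scales. Reads of a sequence with a young name in another library made up 41.5% for L1Md_F, 19.8% for L1_Mus and 14.5% for L1_Mur with L1VL. For Lx, other L1 and L1M they made up 16.3%, 41.1% and 1.24%. Their part in the order of the lineages was not tested. With total reads 35 of 75 L1M names passed the test, 3 of 21 Lx names, L1VL4 and L1_Rod in their group of 7, 3 of the 7 other names (HAL1, HAL1M8 and HAL1ME) and none of the L1Md_F and L1_Mus names, all lower, against 49.9% of all names.

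L1Md_F2 had the most reads of all older names. It had 69988, 75524 and 75496 RPM of TE piRNA reads in controls against 81997, 71676 and 82098 in Tex15-/-, with overlap on this scale but none with TMM, a log2 fold change of 0.97 with TMM (SE 0.20, adjusted p = 0.055) and 0.09 with total reads (adjusted p = 0.525). In Tex15-/- library 1 a single sequence held 8.11% of the L1Md_F2 reads, against at most 2.99% in the other libraries. L1_Mus3 followed with 25607, 28726 and 26427 against 22318, 28222 and 24030, and its log2 fold change turned from 0.75 with TMM (adjusted p = 0.069) to -0.12 with total reads. L1Md_F3 reached an adjusted p of 0.048 at 0.78 with TMM and had -0.08 with total reads. L1_Mm, of whose reads 58.2% were of a sequence with a young name elsewhere, had 4128, 4110 and 4069 RPM in controls against 4336, 4841 and 4733 in Tex15-/-, with no overlap, at 1.05 with TMM (SE 0.14, adjusted p = 0.018) and 0.18 with total reads (adjusted p = 0.301). MusHAL1, a shorter L1 derivative with a single reading frame, stood at 1.00 (adjusted p = 0.023) and 0.14. None of these passed 0.01 with edgeR on read counts on either scale when all 6 libraries were used. With distinct sequences counted once, all but MusHAL1 did (adjusted p from 0.00196 to 0.00552), and with DESeq2, which has its own scale factors, all 5 did (adjusted p from 1.06e-13 to 2.26e-06). Their sizes depended on which sequences were counted. With sequences seen in all 6 libraries under 1 name, the TMM values were 0.41 for L1Md_F2, 0.16 for L1_Mus3, 0.11 for L1Md_F3, 0.35 for L1_Mm and 0.63 for MusHAL1 (adjusted p from 0.140 to 0.614, edgeR). That setting changes the name rule and the libraries required together. With the most frequent name alone, the L1Md_F names ranged from 0.77 to 0.88 and the L1_Mus names from 0.51 to 0.76. In the main fit they ranged from 0.71 to 0.97 and from 0.50 to 0.75. MusHAL1 was 0.54 with the most frequent name for each sequence and 0.60 with sequences of 1 TE name only.

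Some L1_Mur, L1VL and Lx names were lower on the scale of total reads. L1VL4 had 10056, 6049 and 8840 RPM of TE piRNA reads in controls against 4254, 4056 and 4282 in Tex15-/-, at -0.99 with total reads (adjusted p = 0.00344) and -0.10 with TMM (adjusted p = 0.827). The pair of renamed sequences shown above counted as L1VL4 in control libraries 1 and 3 and in no Tex15-/- library. Without them L1VL4 had 5904, 6049 and 5715 RPM in controls, still above Tex15-/-, and with total reads the log2 fold change was -0.49 (SE 0.14, adjusted p = 0.0130), so the call was lost. The pair was chosen after its values were seen and counted as L1VL4 in controls only, so leaving it out could only lessen the difference. With the most frequent name for each sequence L1VL4 had 9740, 9711 and 8849 RPM in controls against 6139, 6018 and 6907 in Tex15-/-, and its TMM value turned to 0.30. Lx had 8003, 10650 and 9097 in controls against 6077, 8070 and 7124 in Tex15-/-, which overlapped, at 0.48 with TMM and -0.38 with total reads. L1_Mus1 had 14653, 15367 and 14447 against 12035, 13652 and 12990, at 0.67 with TMM and -0.20 with total reads, and in RPM of TE piRNA reads L1_Mus2 and L1_Mur1 overlapped between genotypes. With TMM every Tex15-/- library was above the controls for Lx, L1_Mus1, L1_Mus2 and L1_Mur1, and the direction of all 4 turned with total reads.

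The names with the largest fold changes rested on 1 library each. L1ME3G had 11, 145 and 12 RPM in controls against 6, 6 and 8 in Tex15-/- (log2 fold change -2.25 with TMM, adjusted p = 0.270), Lx2A1 had 214, 1444 and 265 against 197, 144 and 178 (-1.05, adjusted p = 0.443), and L1MDa had 92, 98 and 96 against 453, 83 and 51 (1.92, adjusted p = 0.198). Control library 2 was high for L1ME3G and Lx2A1, and Tex15-/- library 1 for L1MDa. In these libraries a single sequence held 90.4% of the L1ME3G reads, 81.7% of the Lx2A1 reads and 56.5% of the L1MDa reads. With the most frequent name for each sequence the 3 values were 0.07, 0.22 and 0.21.

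The bases at the first and the tenth position and the length of the reads varied along the lineages. In controls the share of reads with U at the first position was 69.7% ± 2.36 for L1Md_F, 72.6% ± 2.95 for L1_Mus, 79.6% ± 1.95 for L1_Mur with L1VL, 78.5% ± 0.747 for Lx and 84.2% ± 1.16 for L1M, and 65.0% (63.8% to 65.8%) for young L1 (errors are SD, n = 3). The share with A at the tenth position was 48.7% ± 2.17 for L1Md_F, 46.8% ± 2.58 for L1_Mus and 49.0% ± 1.23 for L1_Mur with L1VL, and lower for Lx (37.2% to 41.5%) and L1M (27.6% ± 1.09). L1M reads were also the shortest, with a mean of 26.7 nt ± 0.00627 against 27.8 nt ± 0.0507 for L1Md_F. Over all older names, U at the first position was 73.5% ± 1.97 in controls and 74.3% ± 1.32 in Tex15-/-, and A at the tenth 46.6% ± 1.61 and 46.5% ± 3.11, with overlap in both. The mean length of older L1 reads was 27.743 to 27.769 nt in controls and 27.611 to 27.742 nt in Tex15-/- and did not overlap, although the nearest libraries were almost equal. It did not overlap either for L1Md_F (27.795 to 27.896 nt in controls and 27.635 to 27.787 nt in Tex15-/-) and L1_Mus (27.81 to 27.83 nt and 27.72 to 27.77 nt), nor for young L1 (27.56 to 27.60 nt and 27.45 to 27.47 nt).

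**Figure D5:**
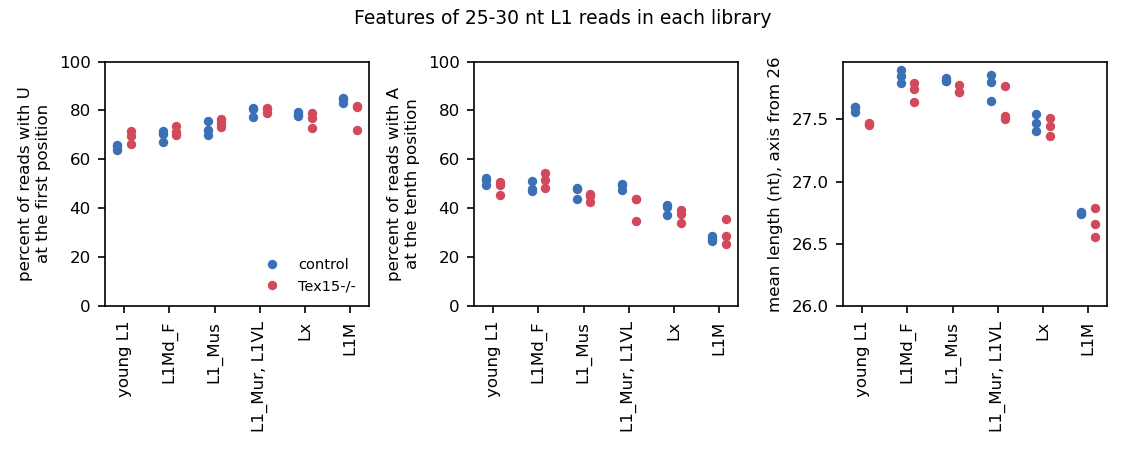
Share of 25-30 nt reads with U at the first position, share with A at the tenth position and mean length (axis from 26 nt), by L1 lineage, in each of 3 control (blue) and 3 Tex15-/- (red) small RNA libraries. U at the first position is lowest in young L1 in the controls, A at the tenth position is on average lowest in L1M in both genotypes, and L1M reads are shortest.

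Beside length, the genotypes did not overlap among the older lineages for A at the tenth position in L1_Mur with L1VL and for U at the first in L1M. For L1_Mur with L1VL the share with A at the tenth position was at least 47.6% in controls and was 44.0%, 34.6% and 43.7% in Tex15-/-. Reads with the first 20 bases of the renamed sequences above, which have A there, made up 11.5% to 15.9% of these reads in controls and 1.83% to 8.47% in Tex15-/-. Without them the shares with A were 39.8%, 40.8% and 42.2% against 38.9%, 33.4% and 38.5%, and the group held 2.75%, 2.80% and 2.80% of TE reads in controls against 2.03%, 2.54% and 2.20%. For L1M, U at the first position was 84.8%, 85.0% and 82.9% in controls against 72.2%, 81.8% and 81.4% in Tex15-/-. In Tex15-/- library 1 a single sequence held 8.49% of the L1M reads, and with distinct sequences counted once the L1M shares were 82.8% to 84.1% and 81.8% to 83.1%, which overlapped. No test was planned for these shares, and with 3 libraries against 3 an exact permutation test cannot go below 0.10.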

How the data were processed

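Long RNA was measured in sorted gonocytes and whole testis, and small RNA in foetal testis. The authors trimmed reads with cutadapt 1.8.1, mapped long RNA to rodent repeat consensus sequences of Repbase with bowtie2 2.3.4.3 and deposited raw read counts per consensus, without normalisation. The deposited gonocyte tables also count the 95.8% to 97.7% of reads on no consensus, which were left out. Gene counts came from HISAT2 and HTSeq 0.11.1, and unassigned reads (61.3% to 67.3%) were left out. For small RNA the authors deposited each sequence with its read count and annotation (bowtie 1.2.1.1), and a sequence found on many copies appears with 1 name per library. Depth was 662394 to 1277612 TE reads per gonocyte library, 338254 to 397378 at P20 and 1995803 to 23244351 TE piRNA reads of 25 to 30 nt.

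Groups follow the sample labels, and the genotype written inside each small RNA table was checked and is the same. Counts of all TE names were fitted in R 4.3.3 with edgeR 4.0.16 (TMM, filterByExpr at min.count 10 and min.total.count 15, quasi-likelihood test), with Benjamini-Hochberg adjustment over all names and a call at an adjusted p under 0.01. The fits were tested on simulated data with equal numbers of rises and falls, so that test does not bear on the choice of scale. Shares and sequences were computed with Python 3.11.15. Alternatives were DESeq2 1.42.0, other scales, filters, lengths and name rules, and each library left out. Named members were those with an adjusted p under 0.05, the 10 with the most reads and the 5 with the largest fold change. Members, lists and tests were chosen with earlier results of these data known. Consensus lengths were not used here, so levels are not compared between consensus sequences.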

Additional observations from a re-analysis of the deposited data

How the results depend on the processing

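In gonocyte RNA, 1 older L1 sequence was called. The count was also 1 with DESeq2, with no filter and with at least 10 counts in every library. The count was 0 with total TE counts without TMM, with gene-count scaling and with an absolute log2 fold change above 1, and it ranged from 0 to 3 when 1 library was left out (0 without control library 2, control library 3 or Tex15-/- library 3, and 3 without Tex15-/- library 1). Calls over all sequences numbered 23, and 27 with DESeq2, 22 with no filter and 17 with at least 10 counts in every library. They numbered 16 without TMM, 1 on the gene scale, and 8 to 52 with 1 library left out. Total counts without TMM, followed by the gene scale, gave L1MdF_III -0.26 and -0.18, L1MdF_IV -0.34 and -0.25, L1MdF_V -0.34 and -0.25 and L1MdN_I -0.24 and -0.18, and without TMM LX9 had -0.052. L1MdF_IV and L1MdF_V were -0.027 and -0.022 with no filter, and -0.019 and -0.014 with at least 10 counts in every library. With 1 library left out, L1MdF_IV ranged from -0.0087 to 0.051 and LX9 from -0.15 to 0.70, both lowest without Tex15-/- library 1. Without Tex15-/- libraries 2 and 3, a setting chosen after seeing the data, L1MdFanc_I, L1MdFanc_II, L1MdV_I and L1MdMus_I were 0.027, 0.025, 0.019 and 0.0072.

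In piRNAs no older name was called. The count was 14 with DESeq2, 43, 51 and 41 with total TE, 18-32 nt and 21-23 nt reads as library size, 6 with distinct sequences counted once, 3 at an adjusted p under 0.05 (3.20% of all names), 1 with sequences in all 6 libraries under 1 name (chosen after seeing the data), and 0 to 5 with 1 library left out (5 without Tex15-/- library 2). Calls over all names were 1, and 64 with DESeq2, 379, 376 and 350 with those library sizes, 29 with distinct sequences, 17 with 1 name in all 6 libraries, and 0 to 25 with 1 library left out. With total TE, 18-32 nt and 21-23 nt reads, in that order, the log2 fold changes were -0.076, -0.23 and -0.33 for L1Md_F3, -0.12, -0.27 and -0.36 for L1_Mus3, -0.19, -0.26 and -0.33 for L1Md_F, -0.20, -0.34 and -0.43 for L1_Mus1, -0.14, -0.30 and -0.39 for L1_Mus2, -0.38, -0.54 and -0.64 for Lx, -0.13, -0.32 and -0.42 for L1_Mur1 and -0.42, -0.53 and -0.61 for L1VL2. With 18-32 nt and 21-23 nt reads MusHAL1 had -0.034 and -0.13 and L1Md_F2 -0.013 and -0.094, and with 21-23 nt reads L1_Mm had -0.047. L1VL4 was 0.079 with 26-29 nt, 0.54 with distinct sequences, 0.46 with 1 TE name only, 0.30 with the most frequent name and -0.27 to 0.037 with 1 library left out (highest without control library 1). L1ME3G was 0.025 with distinct sequences, 0.087 with 1 name only, 0.068 with the most frequent name and -2.76 to 0.13 with 1 library left out. Lx2A1 was 0.33 with 26-29 nt, 0.17 with distinct sequences, 0.13 with 1 name only, 0.44 with sequences of a young name left out, 0.22 with the most frequent name and -1.51 to 0.45 with 1 library left out. Both were highest without control library 2. L1MDa was -0.26 with sequences in all 6 libraries under 1 name. For the scales this follows from the shift of all names, and for the other settings the cause was not tested.

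The older share of TE reads in gonocytes differed by -2.70 percentage points (Tex15-/- minus control), by -4.22 with L1 reads as the denominator, by -0.99 without Tex15-/- libraries 2 and 3 and by -3.56 to -2.14 with 1 library left out. At P20 it was 6.55% of TE reads, 10.6% of L1 reads, 7.56% with L1Lx counted and 6.52% to 6.59% with 1 library left out. The piRNA share differed by -2.36 points, by -0.79 of all 25-30 nt reads, by 1.33 with distinct sequences counted once and by -2.86 to -2.10 with 1 library left out.

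The replicate numbers were not shown to pair the libraries (correlations of same-numbered deviations of 0.03 to 0.12 in gonocytes and -0.23 to 0.11 in piRNAs). With the replicate number as a block 1 older sequence and 0 older piRNA names were called, of 24 and 0 calls in all. Libraries of a group differed by more than sampling noise. Depth limits what can be said of LX5c, LX7 and LX9, the untested LX members and the rare L1M names.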
